A study of Mus musculus with 20 samples.

Results

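The 16 libraries described here are the most and the least active of a set of 20 hippocampal RNA libraries, judged by 3 neuronal activity genes. For each library the score was the mean of log2(CPM + 1) over Fos, Arc and Npas4, where CPM is the gene's count divided by the library's total count and multiplied by 1000000. Within each treatment group of 5 mice the 2 libraries with the highest score were called high and the 2 with the lowest were called low. This gave 8 high and 8 low libraries of the 20, and left 4 middle ones, 1 per group. The classes are defined from the measured RNA and are not groups of the study. Values of the 3 ranking genes in the classes therefore describe the choice and test nothing.

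The study sequenced bulk RNA from single frozen hippocampi of wild-type male mice aged 10 to 12 weeks, 5 in each of 4 groups. Control mice received isotype-matched antibody intraperitoneally. ICI mice received immune checkpoint inhibitors, namely anti–CTLA-4 at 1 mg per dose, 3 times a week, and anti–PD-1 at 200 µg per dose, 2 times a week. Melanoma mice carried tumours of D4M-3A.UV2, a syngeneic melanoma line, from intradermal injections of 500000 cells on both sides, given 1 week to engraft, and received isotype antibody. Melanoma plus ICI mice carried the same tumours and received both checkpoint antibodies, for which the labels state 3 weeks. Harvest followed the last injection by 72 hours. The tumours were in the skin, so these hippocampi come from mice with a peripheral tumour. Strain, time of day, handling before death and the side of the brain are not given in the sources used here.

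Immediate early genes are transcribed within minutes of a neuron firing, without new protein synthesis. Calcium entering through NMDA receptors and voltage-gated channels activates CaM kinases, MAP kinases and calcineurin, and these act on CREB, SRF and MEF2 at the promoters of the immediate early genes. Some of these genes encode transcription factors, such as Fos and Egr1, and others encode effectors at the synapse, such as Arc and Homer1, or inhibitors of the pathway, such as Dusp1. A later wave of genes, among them Bdnf, depends in part on the first. In the hippocampus immediate early genes mark neurons engaged by novelty or by learning and their RNA is short-lived.

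Total counts lay between 21990624 and 25735149 over all 20 libraries, and for the difference between classes an exact two-sided permutation test within groups (1296 relabelings) gave p = 0.480 for the total, 0.812 for the mitochondrial share and 0.471 for genes detected. The mitochondrial share was 5.10% in the low library control 4 and 4.28% in the high library melanoma plus ICI 1. In the rest it lay between 3.077% and 3.785%. All marker genes of the dentate gyrus, CA1 and CA3 fields and of neurons were detected in every library, as were markers of striatum, neocortex and choroid plexus, which lie next to the hippocampus. Of 116 marker genes, the 5 with no count in at least 1 library were all markers of amygdala and hypothalamus. In bulk tissue, fewer cells of a type and less RNA per cell cannot be told apart. The labels give each library its own brain, and the spread used in the tests is that between these mice. For high against low libraries a p-value describes covariation with the ranking genes across mice, as no class was assigned.

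The score ran from 5.00 to 6.53 in the high libraries, with a median of 6.28, and from 3.94 to 5.63 in the low ones, with a median of 4.83. Because ranks were taken within groups, the classes overlapped across groups: both low melanoma libraries, at 5.63 and 5.52, scored above both high ICI libraries, at 5.32 and 5.00. The gap between the class means was 0.99 for control, 0.68 for ICI, 0.79 for melanoma and 2.03 for melanoma plus ICI mice. That last gap was the widest. Its high libraries, at 6.53 and 6.21, were close to the high melanoma libraries, at 6.37 and 6.36, while its low libraries were at 4.74 and 3.94. At the edges of the classes, the lower high library, the middle one and the upper low one stood at 5.63, 5.51 and 5.16 for control mice, and at 5.00, 4.71 and 4.61 for ICI mice. For melanoma mice they stood at 6.36, 5.82 and 5.63, and for melanoma plus ICI mice at 6.21, 5.83 and 4.74. The edge was narrow in control, where 0.12 separated the high class from the middle library, and in ICI, where 0.10 separated the middle library from the low class.

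**Figure D1:**
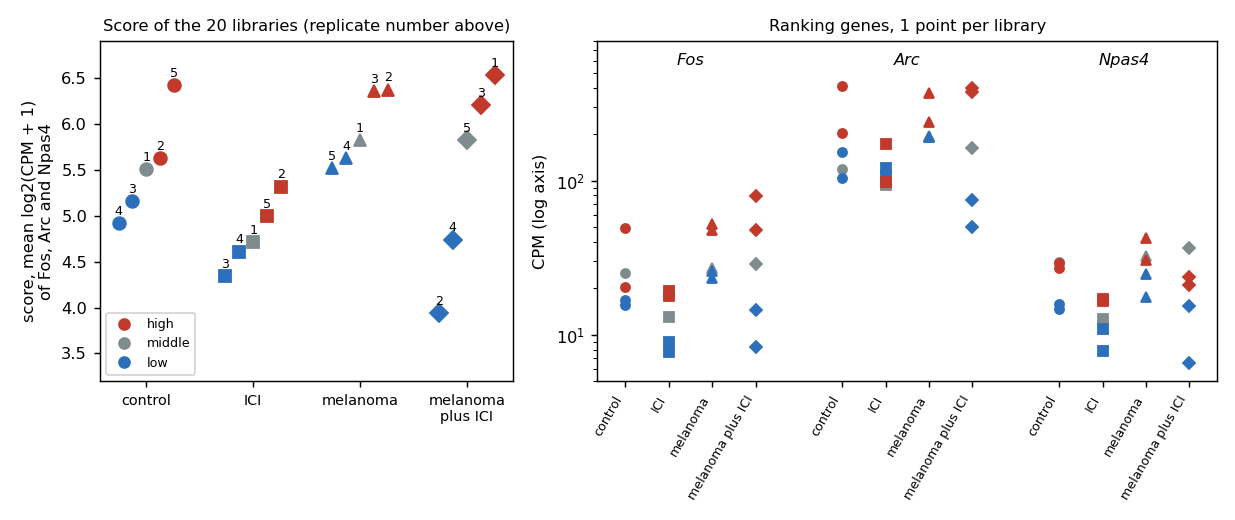
Left, score of each library (mean log2(CPM + 1) of Fos, Arc and Npas4) by treatment group, with the replicate number above each point. Right, CPM of the 3 ranking genes on a log axis, 1 point per library. Red, grey and blue mark high, middle and low libraries, and the low melanoma libraries score above the high ICI libraries.

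Fos, the transcription factor subunit that pairs with Jun proteins in AP-1, was between 17.7 and 79.7 CPM in the high libraries, with a median of 47.9, and between 7.69 and 25.7 CPM in the low ones, with a median of 15.01. Arc, an RNA whose protein removes AMPA receptors from synapses, was between 98.1 and 412 CPM against 50.2 and 193 CPM, with medians of 305 and 115. Npas4, a transcription factor induced by calcium entry, was between 16.5 and 42.2 CPM against 6.53 and 24.7 CPM, with medians of 25.3 and 15.01. Fos and Npas4 separated the classes in all 4 groups and Arc in 3, the exception being ICI, where one high library had 98.1 CPM and both low ones had 108 and 121 CPM. Ranking by Fos alone would have kept the class of 18 of the 20 libraries, ranking by Arc alone 14 and ranking by Npas4 alone 14.

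The first question was whether the rest of the transcriptome differed between high and low libraries within treatment groups. By edgeR's quasi-likelihood test with the treatment group as a covariate, 0 of 18459 genes (0%) passed a Benjamini-Hochberg adjusted p of 0.05. The ranking genes stayed in the family that was adjusted and can lower the adjusted p of genes beside them, so values with those genes left out of the family are given where they differ; by edgeR 0 genes passed in that way too. At an unadjusted p under 0.05, 484 genes (2.62%) were higher in the high libraries and 318 (1.72%) were lower, 802 in sum. That sum moved by more than 1.5 times when any of 8 libraries was left out: it was 1632 without control 4, 1450 without melanoma plus ICI 1, 1354 without control 2 and 1352 without melanoma 5, and 520 without melanoma plus ICI 2, 492 without melanoma 4, 490 without control 5 and 425 without melanoma plus ICI 3. By limma voom it was 2253. The median log2 fold change over all genes was -0.01. Genes in which both high libraries lay above both low libraries in all 4 groups numbered 17 (0.0921%), and the reverse held for 7 (0.0379%). DESeq2 with the same design called 8 genes (0.0433%), all with higher values in the high libraries, and limma voom called 0. The DESeq2 calls were Fosb, Egr1, Egr2, Nr4a1, Dusp1, Ccn1, 1700016P03Rik and Stac3, so 6 of the 8 were on the lists of immediate early genes below. With the ranking genes left out of the family DESeq2 called 7 (0.0379%), and Stac3 no longer passed (adjusted p = 0.0524). A fit of the score as a continuous value over all 20 libraries called 16 genes (0.0868%), 15 with a positive slope and 1 with a negative one. With the ranking genes left out of the family it called 14 (0.076%), without Gm17971 (adjusted p = 0.0533) and the transcription factor Csrnp1 (adjusted p = 0.0582). A small p-value in any of these fits says that a gene varied with Fos, Arc and Npas4 across libraries.

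Immediate early transcription factors were the list with the highest share of members at a small p. Of 24 tested members, 10 had an unadjusted p under 0.05 with higher values in the high libraries and 0 with lower ones, beside 2.62% and 1.72% of all genes, and 0 passed the adjusted threshold by edgeR, against 4 by DESeq2 and 7 in the continuous fit, or 6 there with the ranking genes left out of the family. The log2 fold change was above 0 in 21 of the 24, with a median of 0.32 beside -0.01 over all genes and a range from -0.27 to 1.57. In 4 members, Egr1, Egr2, Nr4a1 and Csrnp1, both high libraries lay above both low ones in every group. The class means were in that order for 17 members among control mice, 16 with ICI, 17 with melanoma and 22 with melanoma plus ICI. The list depended on that last group: without its 4 libraries, 7 members were higher at an unadjusted p under 0.05, beside 1.62% of all genes higher and 1.12% lower in that fit, 15 of 24 had a positive fold change, and the median was 0.15.

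Egr2, a zinc finger transcription factor of the early growth response family, had the highest fold change of the list. It was between 2.62 and 29.2 CPM in the high libraries, with a median of 9.67, and between 1.11 and 7.37 CPM in the low ones, with a median of 3.26. Both high libraries exceeded both low ones in each group, although the low melanoma libraries, at 7.15 and 7.37 CPM, exceeded both high ICI libraries. The log2 fold change was 1.57 (SE 0.32, edgeR unadjusted p = 0.000213, adjusted p = 0.627, or 0.877 without the ranking genes in the family). The middle library lay between the class means in all 4 groups. Egr1, its relative and a long-used marker of plasticity, was between 179 and 478 CPM, with a median of 275, against 87.1 and 211 CPM, with a median of 135. The order held in each group, in control by the smallest margin, 202 against 201 CPM. Its log2 fold change was 0.94 (SE 0.22, unadjusted p = 0.000724, adjusted p = 0.975). The other members of the family had smaller values: Egr3 had a log2 fold change of 0.34 (SE 0.17) and Egr4 of 0.35 (SE 0.15).

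Nr4a1, an orphan nuclear receptor induced by activity, was between 79.0 and 267 CPM in the high libraries, with a median of 173, and between 48.8 and 109 CPM in the low ones, with a median of 81.0. The classes were separated in every group, by the least in ICI, where the high libraries had 94.7 and 79.0 CPM and the low ones 73.6 and 70.7 CPM. The log2 fold change was 0.99 (SE 0.22, edgeR unadjusted p = 0.000484, adjusted p = 0.975). The paralogs did not follow it to the same extent: Nr4a2 had a log2 fold change of 0.31 (SE 0.20) and Nr4a3 of -0.02 (SE 0.17), and the difference between the paralogs was not tested.

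Fosb, an AP-1 subunit whose truncated product accumulates with repeated activity, was between 13.8 and 45.3 CPM in the high libraries, with a median of 25.6, and between 7.28 and 28.5 CPM in the low ones, with a median of 11.1. The classes were separated in ICI and in melanoma plus ICI. In control one high and one low library were level at 14.4 CPM, and in melanoma one low library, at 28.5 CPM, was above one high library, at 27.6 CPM. The log2 fold change was 0.87 (SE 0.16, edgeR unadjusted p = 9.85e-05, adjusted p = 0.454, or 0.811 without the ranking genes in the family), the smallest p of the list. Ier2, a nuclear protein of the fast response, had a log2 fold change of 0.94 (SE 0.23), and Csrnp1, a nuclear factor separated in every group, one of 0.57 (SE 0.16).

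Junb, another AP-1 subunit, had a log2 fold change of 0.61 (SE 0.16, edgeR unadjusted p = 0.00149, adjusted p = 0.975). Its exons overlap those of the antisense gene Prdx2, whose summed counts were 186% of its own, so without a stated strand setting reads of the pair cannot be told apart. Jun had -0.27 (SE 0.18, unadjusted p = 0.140) and Jund 0.00 (SE 0.14), with a sign that differed between settings, and the difference between these paralogs was not tested. The low value of Jun rested in part on 1 high library, melanoma plus ICI 3, at 43.7 CPM, while the other 4 libraries of that group had 113.2 to 129.1 CPM, and without it the fold change was -0.14. Jun, Jund and Nr4a3 were the 3 of 24 members without a positive fold change. Among the remaining members, Klf4 had 0.45 (SE 0.18), Fosl2 0.36 (SE 0.16) and Bhlhe40, a clock-linked repressor, 0.20 (SE 0.12).

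**Figure D2:**
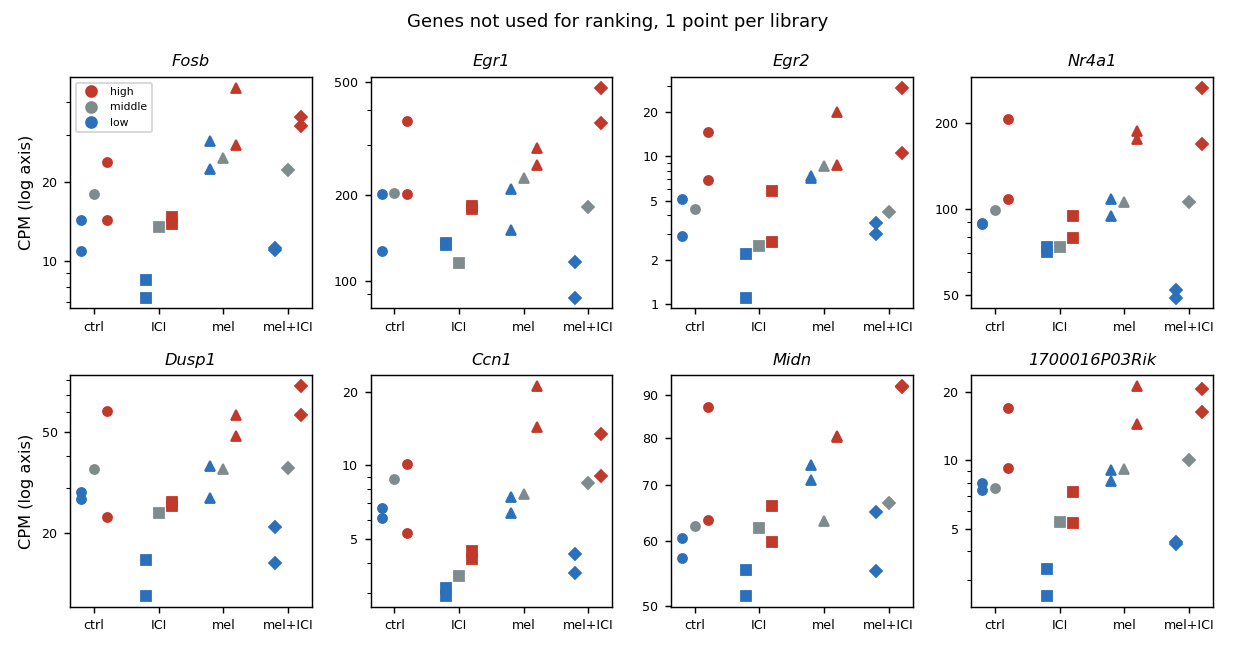
CPM on a log axis of 8 genes that were not used for ranking, by treatment group (ctrl, control; mel, melanoma; mel+ICI, melanoma plus ICI), 1 point per library, with low (blue), middle (grey) and high (red) libraries side by side. Red points lie above blue ones in all 4 groups for Egr1, Egr2, Nr4a1, Midn and 1700016P03Rik, and overlap in control for Dusp1 and Ccn1.

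The promoters of 3 of these genes are shown because CREB and SRF sites near the start are the textbook route from calcium to immediate early genes. The sequences are RefSeq windows of 300 bases, from 250 before to 50 after a transcript start, on GRCm38.p6, and capitals mark the CREB-type letters TGACG on either strand, the full site TGACGTCA, and the CArG box bound by SRF. Where a gene had more than 1 window, the one with the most marked bases is shown, so these windows were picked for the letters. The Fosb window picked in this way, not printed, held TGACG 1 time, with 0 full sites and 0 CArG boxes. The Egr2 window is chr10:67537619-67537918 on the plus strand, at a start inside the gene interval of the deposited tables. The Nr4a1 window is chr15:101266596-101266895 on the plus strand. The Dusp1 window is chr17:26508423-26508722 on the minus strand.
Egr2: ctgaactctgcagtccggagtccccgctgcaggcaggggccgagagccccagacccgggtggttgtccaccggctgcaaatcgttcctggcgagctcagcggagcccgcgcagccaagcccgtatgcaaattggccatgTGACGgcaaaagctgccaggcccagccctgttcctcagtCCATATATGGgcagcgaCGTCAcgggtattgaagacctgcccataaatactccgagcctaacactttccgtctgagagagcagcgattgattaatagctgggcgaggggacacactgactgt
Nr4a1: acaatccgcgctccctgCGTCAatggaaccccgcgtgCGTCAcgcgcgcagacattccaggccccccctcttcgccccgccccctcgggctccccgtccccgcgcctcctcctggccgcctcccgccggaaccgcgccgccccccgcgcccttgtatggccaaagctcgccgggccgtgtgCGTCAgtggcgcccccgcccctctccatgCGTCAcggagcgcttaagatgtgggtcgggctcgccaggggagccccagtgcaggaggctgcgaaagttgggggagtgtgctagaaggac
Dusp1: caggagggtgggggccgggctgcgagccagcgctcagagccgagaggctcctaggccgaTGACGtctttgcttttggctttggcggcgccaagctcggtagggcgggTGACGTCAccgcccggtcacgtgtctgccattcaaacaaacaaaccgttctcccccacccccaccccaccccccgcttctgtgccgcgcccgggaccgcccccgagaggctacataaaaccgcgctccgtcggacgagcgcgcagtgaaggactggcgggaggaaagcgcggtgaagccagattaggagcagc
The Egr2 window held TGACG 2 times and 1 CArG box, the Nr4a1 window held TGACG 4 times, and the Dusp1 window held TGACG 3 times, of which 2, 1 on each strand, lie within 1 full TGACGTCA. Over all 27025 genes with a window in the table, 23% held TGACG on either strand, 2.03% held TGACGTCA and 1.81% held a CArG box. A gene was counted when any of its windows held the letters. Of the immediate early transcription factors, 17 of 24 had a window, and 13 of these (76.5%) held TGACG, 1 (5.88%) TGACGTCA and 1 (5.88%) a CArG box. Of the effectors and feedback genes, 27 of 32 had a window, and 17 (63%) held TGACG, 6 (22.2%) TGACGTCA and 2 (7.41%) a CArG box. Of the delayed activity-dependent genes, 15 of 25 had a window, and 10 (66.7%) held TGACG, 2 (13.3%) TGACGTCA and 0 a CArG box. The full site contains the short one, and such matches describe letters and not binding.

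Immediate early effectors and feedback genes were read in the same way. Of 32 tested members, 10 had an unadjusted p under 0.05 with higher values in the high libraries and 0 with lower ones, beside 2.62% and 1.72% of all genes. By edgeR 0 passed the adjusted threshold, against 2 by DESeq2 and 4 in the continuous fit. The fold change was above 0 in 27 of the 32, with a median log2 value of 0.27 and a range from -0.17 to 1.02. Without the melanoma plus ICI libraries, 6 members were higher at an unadjusted p under 0.05, beside the 1.62% of all genes in that fit, 21 had a positive fold change and the median was 0.06.

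Dusp1, a nuclear phosphatase that switches MAP kinases off, was between 23.1 and 76.0 CPM in the high libraries, with a median of 53.1, and between 11.2 and 36.8 CPM in the low ones, with a median of 24.1. The classes were separated in ICI, melanoma and melanoma plus ICI. In control one high library, at 23.1 CPM, lay below both low ones, at 28.9 and 27.2 CPM, and the other stood at 60.5 CPM. The log2 fold change was 1.02 (SE 0.21, edgeR unadjusted p = 0.000238, adjusted p = 0.627, or 0.877 without the ranking genes in the family). Without that lower control library, control 2, the value was 1.1602, with an edgeR adjusted p of 0.0426 that became 0.0639 once the ranking genes were left out of the family. Ccn1, a secreted matrix protein, was between 4.12 and 21.1 CPM against 2.91 and 7.41 CPM, with medians of 9.58 and 5.21. Control was again the group that overlapped, and its log2 fold change was 0.90 (SE 0.20, unadjusted p = 0.000362, adjusted p = 0.836, or 0.975 without the ranking genes in the family).

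Midn, a nuclear protein that carries immediate early gene products to the proteasome, had a small difference, narrowest in melanoma at 0.14 and widest in melanoma plus ICI at 0.62 on the log2 scale. It was between 59.7 and 92.4 CPM, with a median of 80.3, against 51.3 and 74.2 CPM, with a median of 58.8. It was the 1 member of its list with both high libraries above both low ones in every group. Its log2 fold change was 0.33 (SE 0.08, edgeR unadjusted p = 0.00112, adjusted p = 0.975). Trib1, a pseudokinase, had a log2 fold change of 0.79 (SE 0.21), Sik1, a kinase that restrains CREB coactivators, 0.48 (SE 0.16), Btg2, an antiproliferative factor, 0.48 (SE 0.14), and Plk3, a polo-like kinase, 0.46 (SE 0.16), each with an adjusted p of 0.975. Homer1, whose short form loosens postsynaptic scaffolds, had 0.31 (SE 0.14), and Plk2, a kinase of homeostatic synaptic weakening, had 0.15 (SE 0.11). The Homer1 count joins its long and short forms. Spred1, an inhibitor of the MAP kinase route, had 0.19 (SE 0.09), Ccn2, a matrix protein related to Ccn1, 0.63 (SE 0.48) with a sign that differed between settings, and Rheb, a GTPase that activates mTOR, -0.02 (SE 0.13). Arl4d, a small GTPase, had 0.59 (SE 0.34) with differences of 2.23 in melanoma plus ICI and -0.29 in ICI.

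**Figure D3:**
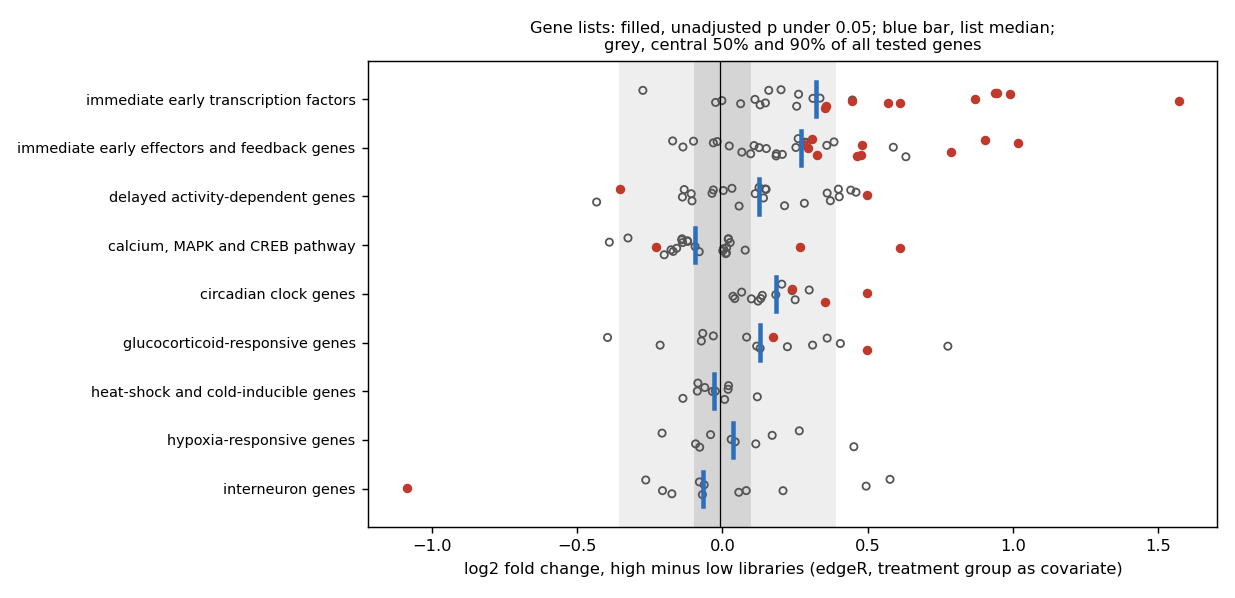
Log2 fold change (high minus low libraries, edgeR with treatment group as covariate) of each tested gene in 9 lists. Filled points have an unadjusted p under 0.05, the blue bar is the list median, and grey bands hold the central 50% and 90% of all tested genes; both immediate early lists lie to the right, with medians of 0.32 and 0.27.

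Delayed activity-dependent genes stood closer to the background. Of 25 tested members, 1 had an unadjusted p under 0.05 with higher values in the high libraries, Sertad1 at a log2 fold change of 0.50 (SE 0.22), and 1 with lower ones, Nptxr, a receptor for neuronal pentraxins, at -0.35 (SE 0.14). The shares over all genes were 2.62% and 1.72%, so these counts were near the background. Leaving out 1 library gave 0 to 4 higher members at such a p. By edgeR 0 passed the adjusted threshold. The median was 0.13, and 17 of 25 were above 0. Without the melanoma plus ICI libraries the median was -0.0057 and 12 of 25 were above 0, and with the tissue levels described further on as covariates the median was 0.027. Bdnf, the neurotrophin of activity-dependent plasticity, was between 23.0 and 58.7 CPM in the high libraries, with a median of 38.0, and between 30.8 and 57.9 CPM in the low ones, with a median of 38.1. The classes overlapped in control, melanoma and melanoma plus ICI. In ICI both high libraries, at 37.7 and 23.8 CPM, lay below both low ones, at 57.9 and 43.8 CPM. Its log2 fold change was -0.13 (SE 0.21). Vgf, a secreted neuropeptide precursor, had 0.06 (SE 0.13), Gpr3, a receptor that raises cAMP, 0.46 (SE 0.22), and Rgs4, a brake on G protein signalling, 0.44 (SE 0.26). Rasl11a, a small GTPase, had -0.43 (SE 0.26), Nrn1, a membrane protein of neurite growth, -0.14 (SE 0.19) and Dnajb5, a cochaperone, 0.14 (SE 0.12). Gpr3 overlaps the antisense gene Cd164l2, whose summed counts were 41.0% of its own.

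The kinases, receptors and transcription factors upstream of immediate early genes had a median log2 fold change of -0.09, with 11 of 25 above 0. The groups were not alike: the high mean was above the low one for 19 of 25 members in control, and for 6, 5 and 6 in ICI, melanoma and melanoma plus ICI. The level of the list differed by 0.17 in control and by -0.14, -0.04 and -0.15 in the others, with both high libraries below both low ones in those 3, and this difference between groups was not tested. At an unadjusted p under 0.05, 2 were higher in the high libraries and 1 was lower, beside 2.62% and 1.72% of all genes, with 0 past the adjusted threshold by edgeR. Mef2c, a transcription factor of excitatory neurons, was between 107 and 433 CPM against 71.1 and 257 CPM, with medians of 241 and 138 and a log2 fold change of 0.61 (SE 0.28). Camk4, a nuclear calcium-dependent kinase, had 0.27 (SE 0.12), and Map2k1, which activates ERK, had -0.23 (SE 0.10). Gria1, an AMPA receptor subunit, had -0.39 (SE 0.22), Camk2a, an abundant kinase of the synapse, -0.12 (SE 0.18) and Ppp3ca, a calcineurin subunit, -0.16 (SE 0.19). These genes also differ between brain regions, and the marker values given further on moved beside them; their part was not tested.

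The gene with the smallest p outside the ranking genes was 1700016P03Rik, a noncoding RNA at chr11:75172560-75177633 on the plus strand in the deposited coordinates. Its first intron holds the genes of the microRNAs miR-212 and miR-132, known targets of CREB in neurons. The RNA was between 5.34 and 21.2 CPM in the high libraries, with a median of 15.4, and between 2.55 and 9.08 CPM in the low ones, with a median of 5.90. Both high libraries lay above both low ones in each of the 4 groups: 9.25 and 17.0 against 7.94 and 7.40 CPM in control, 7.29 and 5.34 against 2.55 and 3.36 in ICI, 14.5 and 21.2 against 8.10 and 9.08 in melanoma, and 20.6 and 16.2 against 4.30 and 4.40 in melanoma plus ICI. The log2 fold change was 1.23 (SE 0.19, edgeR unadjusted p = 1.07e-05, adjusted p = 0.168, or 0.197 without the ranking genes in the family). By DESeq2 it was 1.23 with an adjusted p of 3.55e-06. Its exons overlap those of the antisense gene Ovca2, whose summed counts were 123% of its own, and reads of the pair cannot be told apart without a stated strand setting.

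The hairpins of both microRNAs lie between exon 1 of the host, which ends at 75172597, and exon 2, which starts at 75173978, so counts on them are host intron or precursor reads and not mature microRNA. Both were picked after the value of the host was seen. The hairpin of miR-212 had a log2 fold change of 0.81 (SE 0.19, edgeR unadjusted p = 0.000785, adjusted p = 0.975), with medians of 1.94 CPM in the high and 0.97 CPM in the low libraries. That of miR-132 had 1.05 (SE 0.27, unadjusted p = 0.00146, adjusted p = 0.975), with medians of 0.72 and 0.28 CPM. Each separated the classes in 3 of the 4 groups. The mature 3′ arms, from RefSeq on GRCm38.p6, are shown because they carry the same seed, bases 2 to 8, in capitals.
mmu-miR-132-3p: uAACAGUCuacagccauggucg
mmu-miR-212-3p: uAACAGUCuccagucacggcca
These were the 2 of 1738 mature mouse microRNAs in the table with the seed AACAGUC. Among genes outside the lists, the next by p were Kcnab3os, with a log2 fold change of 0.88 (SE 0.17, edgeR adjusted p = 0.487, or 0.811 without the ranking genes in the family), and Gm17971, with 1.15 (SE 0.26, adjusted p = 0.975), both separated in every group at median levels under 1.3 CPM. Kcnab3os lies antisense to Kcnab3, whose summed counts were 3701% of its own.

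Genes of other short-term responses were examined in the same fit. All 15 circadian clock genes had a fold change above 0, with a median log2 value of 0.18, and 3 had an unadjusted p under 0.05. Over all genes 8671 of 18459 were above 0 and 2.62% were higher at such a p. The 3 were Per1, at 0.50 (SE 0.16), which is induced by activity and by glucocorticoid as well as by the clock, Hlf at 0.35 (SE 0.15) and Nr1d2 at 0.24 (SE 0.10). The clock genes Ciart and Tef had 0.30 (SE 0.18) and 0.04 (SE 0.07). Leaving out 1 library gave 0.11 to 0.39 for Ciart and 0.0028 to 0.073 for Tef, both lowest without melanoma plus ICI 3. Glucocorticoid-responsive genes had a median of 0.13, with 2 of 15 higher at an unadjusted p under 0.05, beside the same 2.62%, Per1 and Nr3c1, the receptor itself, at 0.17 (SE 0.08). Sgk1, a kinase induced by glucocorticoid, had 0.41 (SE 0.31) and -0.10 without the melanoma plus ICI libraries. Plin4, a lipid droplet protein, had 0.78 (SE 0.36), and 0.43 without melanoma plus ICI 3. It overlaps the antisense gene Hdgfl2, whose summed counts were 872% of its own. Nr3c2, the mineralocorticoid receptor, had -0.40 (SE 0.25). Heat-shock and cold-inducible genes had a median of -0.03 and hypoxia-responsive genes one of 0.04, with 0 of 10 members each at an unadjusted p under 0.05. Among the heat-shock genes the chaperones Hspa8, Hsp90aa1, Dnajb1 and Hspb1 had -0.02 (SE 0.08), -0.03 (SE 0.14), 0.12 (SE 0.09) and -0.14 (SE 0.14). Among the hypoxia-responsive genes the peptide hormone Adm had 0.45 (SE 0.25), the glucose transporter Slc2a1 0.26 (SE 0.15), Ndrg1 0.17 (SE 0.13) and the glycolytic enzyme Ldha -0.08 (SE 0.12). With 1 library left out, Adm ran from 0.30 to 0.58, Slc2a1 from 0.12 to 0.33 and Ndrg1 from 0.099 to 0.26. Of 12 inflammatory genes, 4 were abundant enough to be tested, and 0 of them had an unadjusted p under 0.05. The cytokine Il1a had -0.56 (SE 0.31), the inflammasome sensor Nlrp3 -0.31 (SE 0.20), the NF-kB inhibitor Nfkbia 0.13 (SE 0.19) and the adhesion molecule Icam1 0.38 (SE 0.41). Without melanoma plus ICI 2, Nlrp3 had -0.14. Il1a overlaps the antisense gene Gm14023, with 68.9% of its summed counts, and Icam1 overlaps Gm47079, with 172%. No list had a member past the adjusted threshold by edgeR.

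Markers of tissue regions and cell types were read in the same fit, and 0 passed the adjusted threshold by edgeR. All 8 neocortex markers had a positive fold change, with a median log2 value of 0.59 and 1 of 8 higher at an unadjusted p under 0.05, beside 2.62% of all genes, and all 8 oligodendrocyte markers did, with a median of 0.25. Of 8 striatum markers 7 were above 0, with a median of 0.46. The striatum level was highest in 2 melanoma libraries, 1 high at 6.73 and 1 low at 5.94, and in the high library melanoma plus ICI 3 at 5.70; over all 8 libraries of a class it ran from 3.26 to 6.73 in the high and from 3.24 to 5.94 in the low ones. None of the 7 choroid plexus markers (median -0.33) or the 8 meninges markers (median -0.25) was above 0. Of 7 dentate gyrus markers 1 was above 0, with a median of -0.44, and of 6 CA3 markers 0 were, with a median of -0.40. Of 6 CA1 markers 3 were above 0, with a median of 0.01 and 1 higher at an unadjusted p under 0.05 by edgeR. Of 7 endothelium markers 6 were above 0, with a median of 0.16. Markers of neurons, astrocytes and microglia had medians of 0.00, -0.06 and -0.05. The neocortex level, the mean log2(CPM + 1) of its markers, was between 3.59 and 5.52 in the high libraries, with a median of 4.90, and between 3.93 and 5.05 in the low ones, with a median of 4.27, so the classes overlapped. The dentate gyrus level was between 3.59 and 6.55 in the high libraries and between 4.85 and 6.50 in the low ones. Of 6 thalamus markers 1 was lower at an unadjusted p under 0.05, Prkcd at -1.02 (SE 0.44), and so was 1 of 3 tested markers of amygdala and hypothalamus, the neuropeptide Gal at -1.36 (SE 0.43). Interneuron genes had a median of -0.07, with 5 of 12 above 0 and 1 lower at an unadjusted p under 0.05, beside 1.72% of all genes. Gad1, which makes GABA, had -0.07 (SE 0.07), the neuropeptide Cck -0.06 (SE 0.20) and the calcium-binding protein Pvalb 0.58 (SE 0.34). With 1 library left out, Pvalb ran from 0.39 to 0.90, the latter without control 4, and Gad1 from -0.10 to -0.032. The 1 gene at the small p was Calb2, the calcium-binding protein calretinin of interneurons and mossy cells, with medians of 25.1 CPM in the high and 47.6 CPM in the low libraries and a log2 fold change of -1.09 (SE 0.36).

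These marker values were not alike in the groups. The difference in neocortex level, high minus low, was -0.31 for control, 0.71 for ICI, 0.33 for melanoma and 1.18 for melanoma plus ICI mice. For the dentate gyrus it was 0.88, -1.22, -0.72 and -0.81 in the same order, and that of the choroid plexus 2.78, 0.63, -2.87 and -1.78. The level of immediate early transcription factors differed by 0.24, 0.17, 0.23 and 0.86, and that of the effectors by 0.14, 0.09, 0.18 and 0.71. In control, the high mean was above the low one for the immediate early and dentate gyrus levels and below it for neocortex. Its high libraries differed: control 5 had 5.00 for the transcription factors and 5.13 for neocortex, and control 2 had 4.61 and 3.59. The low libraries control 3 and control 4 had 4.58 and 4.55, with 4.29 and 5.05 for neocortex. The oligodendrocyte level differed by 0.42, -0.17, 0.29 and 0.70 over the 4 groups, and the endothelium level by 0.16, 0.14, 0.07 and 0.17. The part of these tissues was not tested. With the striatum, neocortex, dentate gyrus and choroid plexus levels as covariates, 8 of 24 transcription factors and 10 of 32 effectors had an unadjusted p under 0.05, all higher, with medians of 0.23 and 0.18, beside 3.1% of all genes higher and 2.72% lower at such a p in that fit, and 0 genes passed the adjusted threshold. The continuous fit with the same covariates, chosen after seeing the data, called 9 genes (0.0488%): Fosb, Egr1, Nr4a1, Junb, Ier2, Dusp1, Ccn1, Btg2 and 1700016P03Rik.

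**Figure D4:**
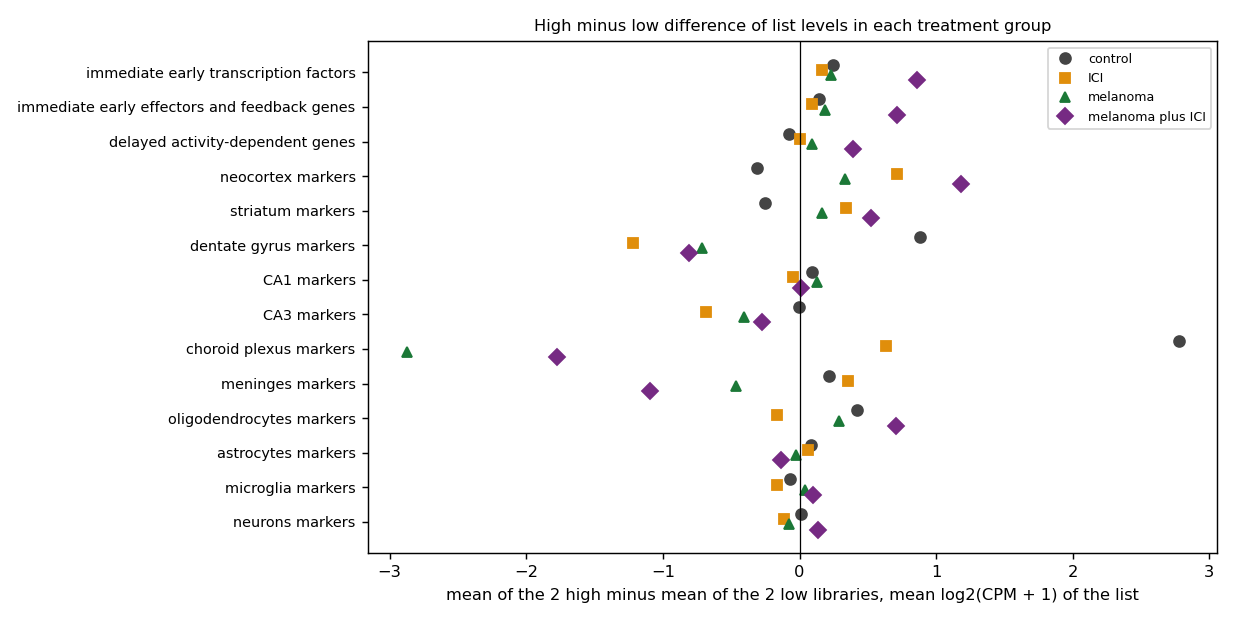
Difference between the mean of the 2 high and the mean of the 2 low libraries in the mean log2(CPM + 1) of each gene list, 1 point per treatment group. Immediate early lists are above 0 in all 4 groups and highest in melanoma plus ICI at 0.86 and 0.71, while neocortex, dentate gyrus and choroid plexus markers change sign between groups.

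The design also allows the question whether the difference between high and low libraries itself depended on treatment. For checkpoint inhibitors, 0 of 18459 genes (0%) passed by edgeR's quasi-likelihood test of the interaction, with 578 (3.13%) at an unadjusted p under 0.05 in the direction of a larger difference with ICI and 448 (2.43%) in the other. For the tumour, 0 passed (0%), with 673 (3.65%) and 911 (4.94%). These counts rested on single libraries. The ICI sum of 1026 became 4177 without control 3 and 2320 without melanoma plus ICI 3, and fell to 494 without control 2, 609 without ICI 5, 642 without control 4 and 642 without melanoma plus ICI 4. The tumour sum of 1584 became 5402 without control 3, where 2811 genes lay in the first direction and 2591 in the other, and 3838 without melanoma plus ICI 3. It fell to 767 without ICI 3, 867 without control 4, 870 without control 2, 921 without melanoma plus ICI 4 and 1038 without melanoma plus ICI 1. The adjusted count stayed at 0 for both in each of these fits. DESeq2 called 0 and 11 genes in these tests. Without a filter on low counts, edgeR called 351 and 724 of 34453 genes, a set that adds genes with counts too low for the filter. Of the 24 immediate early transcription factors, 5 had an unadjusted p under 0.05 towards a larger difference with ICI and 7 towards a larger one with tumour, and the medians were 0.39 and 0.36. Of the 32 effectors these counts were 7 and 8, with medians of 0.23 and 0.34, and 1 lay towards a smaller difference with ICI. Of the 25 delayed genes they were 4 and 2, with medians of 0.16 and 0.41, and 1 lay towards a smaller difference with tumour. Both contrasts include the melanoma plus ICI libraries, whose gap in the score was the widest, and the share of that gap in them was not tested.

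The gene with the smallest p of the tumour interaction was Crhr2, a receptor for urocortins, at -2.87 (SE 0.48, edgeR adjusted p = 0.541). Its differences in control, ICI, melanoma and melanoma plus ICI were 0.72, 0.67, -1.19 and -1.95, in the same direction in each group as those of the choroid plexus markers above, and the part of that tissue in it was not tested. For the ICI interaction it was Gm10222, at -2.11 (SE 0.45, edgeR adjusted p = 0.766).

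Libraries were ranked within groups, so differences of the ranking genes between groups were not used by the ranking and could be tested. None of Fos, Arc and Npas4 passed the adjusted threshold in any of 5 contrasts by edgeR over 18427 genes, in each of which 0% of genes passed, or by DESeq2. Control mice had a score of 5.53 ± 0.57 (SD, n = 5), and those given ICI alone had 4.79 ± 0.37. With tumours the score was 5.94 ± 0.40 under isotype antibody and 5.45 ± 1.08 under ICI. ICI had the lowest mean, with all 3 genes below control: the log2 fold change was -0.91 (SE 0.48) for Fos, -0.71 (SE 0.47) for Arc and -0.82 (SE 0.34) for Npas4, each with an adjusted p of 0.767. Without control 5 the value was -0.54 for Fos and -0.28 for Arc. In melanoma plus ICI against ICI, Fos had 1.40 (SE 0.48, adjusted p = 0.563), Arc 0.81 (SE 0.47, adjusted p = 0.610) and Npas4 0.63 (SE 0.34, adjusted p = 0.586). Without melanoma plus ICI 1, Fos had 0.86 and Arc 0.44, without melanoma plus ICI 3 Arc had 0.50, and without melanoma plus ICI 5 Npas4 had 0.32. These contrasts share control or ICI libraries. Of 5 genes that were not ranked on, 1700016P03Rik had 1.19 (SE 0.42) and Fosb 0.92 (SE 0.31) in the same contrast, with adjusted p-values of 0.563 each, and Nr4a1 had 0.68 (SE 0.37), Egr1 0.67 (SE 0.36) and Junb 0.47 (SE 0.25). Against control, these 5 had, in the same order, 0.17, 0.45, 0.11, 0.14 and 0.09 in melanoma plus ICI. In ICI against control they had -1.02, -0.47, -0.58, -0.53 and -0.38. Fosb had 0.87 (SE 0.31, edgeR adjusted p = 0.817) in melanoma against control. The spread of the score within melanoma plus ICI, an SD of 1.08, was more than the difference between any pair of group means except ICI and melanoma.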

How the data were processed

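Bulk RNA-seq counts per gene for 20 hippocampi were used as the authors deposited them, as raw counts per the labels. The submitters' processing notes name STAR 2.5.2b and DESeq2 1.16.1; the counting program, strand setting and genome build are not given in the sources used here. The tables hold 49671 genes, and 345 identifiers had no symbol in GENCODE M21.

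CPM came from column totals. Tests used edgeR 4.0.16 in R 4.3.3 (quasi-likelihood, robust, TMM factors 0.96 to 1.05) on the 16 high and low libraries with the treatment group as covariate and 11 residual degrees of freedom. filterByExpr at a minimum count of 10 and total of 15 kept 18462 genes, 18459 without the ranking genes. P-values were adjusted by Benjamini-Hochberg over all genes, ranking genes included, with a threshold of 0.05, and again with the ranking genes left out of the family. Interactions used 1 mean per group and class, and treatment contrasts used all 20 libraries. DESeq2 1.42.0 and limma 3.58.1 served as alternatives, 31 in all, and the code was tested on simulated data.

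The members, lists and tests were chosen with earlier results of these data known. Named genes were, per list, those with the largest fold change or the highest level, up to 8 in the first 3 lists and 4 in the others, marker genes, and the 3 smallest p-values elsewhere. Egr3, Egr4, Nr4a2, Nr4a3, Junb, Csrnp1, Klf4, Fosl2, Midn, Sik1, Btg2, Plk3, Arl4d, Bdnf, Nr1d2, Camk4, Map2k1, Nr3c1, Stac3 and the microRNA hairpins were named after their values were seen.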

Additional observations from a re-analysis of the deposited data

Results flagged for a closer look

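Of 324 sets of 5 libraries tested for 1 value far from the other 4, 19 stood out, beside the 1 in 20 that chance gives. The library control 5, a high library with the top score of its group, accounted for 5 of them. It had 208 CPM of Nr4a1 against 88.4 to 109 in the other control libraries, 30.4 CPM of Trib1 against 11.9 to 14.9, and 87.1 CPM of Midn against 57.2 to 63.5. It also had 17.0 CPM of 1700016P03Rik against 7.40 to 9.25, and 1.39 CPM of Kcnab3os against 0.72 to 0.83. Among other high libraries, melanoma 3 had 19.9 CPM of Egr2 against 7.15 to 8.73, ICI 5 had 46.3 CPM of Nr4a3 against 77.6 to 93.5, and melanoma plus ICI 3 had 43.7 CPM of Jun against 113.2 to 129.1. ICI 5 also had 206 CPM of Hlf, a clock-controlled transcription factor, against 143 to 155. The low library melanoma 4 had 110 CPM of Hlf against 168 to 193, and 71.1 CPM of Mef2c against 175 to 223. In control 4, a low library, Cck was at 336.5 CPM against 166 to 180 and Stac3 at 2.98 CPM against 5.13 to 5.55. Plin4 was at 46.9 CPM in the middle library melanoma 1 against 17.9 to 23.2, and at 21.7 CPM in the high library melanoma plus ICI 3 against 3.60 to 6.01. The latter also had 34.4 CPM of Ciart against 11.3 to 15.5. Melanoma 1 had 1.03 CPM of Adm against 1.39 to 1.49. The high library melanoma plus ICI 1 had 19.7 CPM of Icam1 against 2.06 to 3.54, and the high library ICI 2 had 1.13 CPM of Nlrp3 against 0.82 to 0.90.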

How the results depend on the processing

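The main count of 0 genes past the adjusted threshold held with size factors, limma voom, the 4 tissue levels as covariates, each single ranking gene, and without control 4 (low) and melanoma plus ICI 1 (high), which lay apart in earlier results of these data, or the melanoma plus ICI libraries (the last 2 chosen after seeing the data). Without those 2 libraries 1795 genes had an unadjusted p under 0.05 and the effector median was 0.20. The mean r was 0.03 over 30 same-numbered pairs of libraries (range -0.42 to 0.62) and -0.0054 over 120 pairs with different numbers (range -0.61 to 0.78). What the replicate numbers stand for is not given, and these values cannot exclude a pairing. The replicate block also gave 0 calls, with 595 genes higher and 499 lower at an unadjusted p under 0.05 by edgeR. DESeq2 called 8 genes, 4 transcription factors and 2 effectors among them. Without a filter, 1 gene was called, and with the middle class 1, in both cases 1700016P03Rik. The continuous score called 16 genes (7 transcription factors and 4 effectors), with the tissue levels added 9 (5 and 3), and with the replicate block 6 (4 and 1), the last 2 settings chosen after seeing the data. Leaving out 1 library gave 0 to 2 genes and 0 to 1 effectors, the 2 being 1700016P03Rik and Dusp1 without control 2. With the ranking genes left out of the adjusted family, also chosen after seeing the data, edgeR called 0 in the main fit, DESeq2 called 7 (4 and 2), and the continuous score called 14 (6 and 4), 9 (5 and 3) with tissue levels and 6 (4 and 1) with the block. In the same family 1 gene was called without a filter, 0 with the middle class, where 1700016P03Rik was lost (adjusted p = 0.0719), and 0 to 1 when 1 library was left out. For the tumour interaction DESeq2 called 11 genes, and without a filter the interactions called 351 (ICI) and 724 (tumour) of 34453 genes.

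Of 77 genes followed over 31 settings, 22 changed sign in at least 1. Values of the continuous fits, also with tissue levels or the block added, are log2 slopes per unit of score. They compare with the high minus low fold changes of the other settings in sign but not in size. Bdnf was at 0.025 with the continuous score, 0.10 with tissue levels added, 0.096 with the block added and 0.23 ranked by Arc. Nr4a2 was at -0.28 ranked by Arc. Nr4a3 was at 0.067 with the continuous score, 0.30 with tissue levels added, 0.10 with the block added, 0.19 with tissue levels alone and 0.26 ranked by Arc. Jund was at 0.076 by voom, 0.046 with the replicate block, 0.058 with the continuous score, 0.075 with the block added, 0.000418 with the middle class, 0.045 ranked by Fos, 0.037 ranked by Npas4 and 0.063 without the 2 libraries apart. Vgf was at -0.11 with tissue levels, -0.078 ranked by Arc, -0.044 in the continuous fit with tissue levels, and -0.056 without melanoma plus ICI, where Sgk1 was at -0.097 and Bhlhe40 at -0.0057. Leaving out 1 library gave -0.078 to 0.14 for Jund, -0.11 to 0.084 for Nr4a3 and -0.0029 to 0.18 for Vgf. Among genes of the activity lists and Sgk1, without a change of sign, values that moved by more than 1.5 times included those of Bdnf (-0.014 without ICI 5, -0.033 without ICI 3, -0.056 without melanoma 3, -0.059 without melanoma plus ICI 3, -0.21 without melanoma 2, -0.32 without melanoma plus ICI 1), Nr4a2 (0.16 without ICI 5), Sgk1 (0.19, 0.24 and 0.23 without melanoma plus ICI 2, 3 and 4), Arl4d (0.34 without melanoma plus ICI 2), Bhlhe40 (0.11 without melanoma plus ICI 4), and Camk4 (0.17) and Gria1 (-0.26) without melanoma plus ICI 3. With the continuous score, Rheb was at 0.035, Nrn1 0.028, Hspa8 0.0081, Hsp90aa1 0.034, Hspb1 0.000335 and Cck 0.057. With the block added, Rheb was at 0.066, Nrn1 0.12, Ppp3ca 0.087, Tef -0.029, Hspa8 0.0061, Hsp90aa1 0.068, Hspb1 0.14 and Cck 0.10. With tissue levels added, Ccn2 was at -0.39, Nr3c2 0.019, Nrn1 0.10, Rasl11a 0.16, Camk2a 0.11, Ppp3ca 0.10 and Hspa8 0.025. With tissue levels alone, Ccn2 was at -0.32, Camk2a 0.098, Ppp3ca 0.0031 and Nfkbia -0.0086. Ranked by Arc, Ccn2 was at -0.68, Nr3c2 0.10, Nrn1 0.16, Rasl11a 0.032, Camk2a 0.20, Ppp3ca 0.25, Hspb1 0.13 and Cck 0.061. Ranked by Fos, Rheb was at 0.0080 and Hsp90aa1 0.0046, and ranked by Npas4, Rheb 0.024, Hspa8 0.017, Hsp90aa1 0.011, Ldha 0.019 and Nfkbia -0.0016. By voom, Rheb was at 0.030, Cck 0.011 and Icam1 -0.25. Icam1 was at -0.16 with the replicate block, -0.29 without the 2 libraries apart and -0.11 without melanoma plus ICI, where Nfkbia was at -0.23. Leaving out 1 library gave -0.12 to 0.10 for Rheb (above 0 without control 2, 4 or 5, melanoma 3 or melanoma plus ICI 3), -0.15 to 0.077 for Hsp90aa1 (above 0 without control 2, 4 or 5 or melanoma plus ICI 3), -0.079 to 0.018 for Hspa8 (melanoma plus ICI 3), -0.16 to 0.029 for Ldha (control 4), -0.013 to 0.22 for Nfkbia (below 0 without melanoma plus ICI 2), -0.20 to 0.52 for Icam1 (below 0 without melanoma plus ICI 1) and -0.19 to 0.097 for Cck (above 0 without control 4 or ICI 3). The cause was not tested.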
